A study of Mus musculus with 9 samples.

Results

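Condensin is the ring-shaped complex that folds chromosomes for mitosis, and *Top2a* encodes topoisomerase II alpha, the enzyme that passes DNA strands through each other so that sister chromatids can separate. The 9 genes followed here are the 8 condensin subunit genes, *Smc2*, *Smc4*, *Ncapd2*, *Ncapg*, *Ncaph*, *Ncapd3*, *Ncapg2* and *Ncaph2*, together with *Top2a*. They were taken from the count table by gene symbol as members of these complexes, with their rise from baseline already known. All 9 were found among the 43346 genes of the table, and all 9 were among the 15024 genes that passed the filter on low counts.

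Whole-liver RNA-Seq was compared in 9 libraries from 12-week-old male mice labelled C57/BL6 (C57BL/6J in the study's methods), in 3 groups of 3. Every mouse had 70% partial hepatectomy (PHx), and dosing with vehicle or NSC-87877 (NSC), a small-molecule inhibitor of the phosphatases SHP2 and SHP1, began 12 h before surgery by the labels and 1 day before it by the study's methods. The baseline was the resection specimen of vehicle-treated mice (0 h), and it was compared with the liver remnant 40 h after PHx in vehicle-treated mice and in mice given NSC at 7.5 mg/kg per dose. A baseline from NSC-treated mice was not analysed here, so both 40 h groups are set against the same 3 vehicle libraries. The study's figure legends give 3 biological replicates per group. The sources do not say whether a resection specimen and a remnant with the same number came from the same mouse, and p-values measure the spread between these libraries.

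Totals were 27956396 to 42887589 counts in the vehicle remnants, 23997363 to 30201051 in the NSC remnants and 31187349 to 33943842 at baseline. The 8 hepatocyte markers (albumin and others) summed to between 95060 and 131600 CPM (counts scaled to library size) over all 9 libraries, so the defining markers of liver were present throughout. Most of this sum was albumin (group means 86300 to 92300 CPM), so it says little about the other markers. By the thresholds given below, *Tat* was lower than baseline in the NSC remnants (log2 fold change -1.93, edgeR adjusted p = 0.000225). It was the only 1 of the 8 called in either 40 h group. The 8 macrophage markers summed to 152.3 to 222.6 CPM at baseline, 148.7 to 272.0 in the vehicle remnants and 295.3 to 489.2 in the NSC remnants. NSC replicate 1 stood apart from the other NSC remnants. It had the highest macrophage sum (489.2 CPM) and the highest endothelial sum (238.6 CPM) of all libraries. Among the NSC remnants its hepatocyte sum was the lowest (97030 CPM, against 111200 and 124500), as was its erythroid sum. Its stellate sum was the highest of them (101.8 CPM, against 74.6 and 77.6), as were its neutrophil and lymphocyte sums, and its cholangiocyte sum lay between theirs. Results that rest on this library are given with and without it. In whole liver, fewer cells that carry a transcript and less of that transcript per cell cannot be told apart.

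As background, vertebrate cells have condensin I and condensin II, which share the ATPase arms SMC2 and SMC4. Each adds its own kleisin, the subunit that closes the ring (NCAPH in condensin I, NCAPH2 in condensin II), and its own pair of HEAT-repeat subunits that bind DNA (NCAPD2 and NCAPG, or NCAPD3 and NCAPG2). Condensin II is in the nucleus throughout the cell cycle and begins chromosome folding in prophase, whereas condensin I reaches chromosomes after the nuclear envelope breaks down. Adult hepatocytes rarely divide, and removal of liver mass brings the remaining hepatocytes back into the cell cycle.

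The genes lie on separate chromosomes of GRCm38. *Smc2* (ENSMUSG00000028312) is at chr4:52439243-52488260, *Smc4* (ENSMUSG00000034349) at chr3:69004738-69034623 and *Top2a* (ENSMUSG00000020914) at chr11:98992943-99024189. Of the condensin I genes, *Ncapd2* (ENSMUSG00000038252) is at chr6:125168007-125191701, *Ncapg* (ENSMUSG00000015880) at chr5:45669922-45700544 and *Ncaph* (ENSMUSG00000034906) at chr2:127103809-127133954. Of the condensin II genes, *Ncapd3* (ENSMUSG00000035024) is at chr9:27030175-27095311, *Ncapg2* (ENSMUSG00000042029) at chr12:116405402-116463531 and *Ncaph2* (ENSMUSG00000008690) at chr15:89355719-89372826. *Ncapg* overlaps *Lcorl* on the other strand, which held 145 to 343 counts in every library, and *Ncaph2* overlaps *Sco2* and *Tymp* on the other strand. *Tymp* held 951 to 2843 counts at baseline and 563 to 1479 in the remnants, and *Sco2* held 776 to 1721 and 463 to 978, beside 1772 to 1844 and 1818 to 3327 for *Ncaph2*. The strand setting of the counting is not given in the sources used here, so reads from these overlaps may be shared, and their part in the *Ncaph2* and *Ncapg* values was not tested.

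Promoter sequence is shown for the 3 members whose differences below illustrate condensin I and *Top2a*, and for the 2 condensin II subunits with the smallest differences. The choice of genes thus followed their differences from baseline. Stretches are from RefSeq (GRCm38.p6), read 5′ to 3′ on the strand of the gene and kept outside annotated exons. Capitals mark the cell cycle homology region (CHR, written TTTGAA or TTCGAA) and the CCAAT box on either strand, so that ATTGG stands for the CCAAT box, and TTCAAA for the first form of the CHR, on the opposite strand. The third CCAAT box and the E2F-type match of *Ncapd2* and the farthest CCAAT box of *Top2a*, given below, lie outside the stretches shown. *Ncaph* rose in the vehicle remnants (log2 fold change 4.23) without a match to any motif searched below, and is not shown. *Ncapg2* (4.40) and *Smc2* (3.65) rose and had a CHR match, and are not shown either. The stretches shown therefore do not tell whether these motifs go with the size of the rise.
Ncapg chr5:45669725-45669918 (plus strand): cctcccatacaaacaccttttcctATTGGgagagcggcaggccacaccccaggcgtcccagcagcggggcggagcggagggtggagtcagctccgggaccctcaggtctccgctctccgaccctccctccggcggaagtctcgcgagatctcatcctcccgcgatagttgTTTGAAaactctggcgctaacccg
Ncapd2 chr6:125191702-125191786 (minus strand): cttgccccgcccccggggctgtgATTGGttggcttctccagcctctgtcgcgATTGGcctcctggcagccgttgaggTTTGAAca
Top2a chr11:99024190-99024389 (minus strand): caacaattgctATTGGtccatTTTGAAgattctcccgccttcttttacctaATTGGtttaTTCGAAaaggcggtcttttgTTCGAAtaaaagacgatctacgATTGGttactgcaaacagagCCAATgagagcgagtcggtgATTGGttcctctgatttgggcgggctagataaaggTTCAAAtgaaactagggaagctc
Ncapd3 chr9:27030066-27030164 (plus strand): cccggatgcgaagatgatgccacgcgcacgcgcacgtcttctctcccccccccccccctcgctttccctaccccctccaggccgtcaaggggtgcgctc
Ncaph2 chr15:89355660-89355718 (plus strand): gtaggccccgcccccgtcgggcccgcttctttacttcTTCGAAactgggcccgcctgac

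A window of 250 bases before to 50 after the RefSeq start was found for 8 of the 9 members (all but *Smc4*). The motifs CHR, CCAAT and the E2F-type TTTGGCGC and TTTCCCGC were searched on both strands, with TTCGAA reading the same on either strand. The *Ncapg* window held a CHR that began 30 bases before the start (position -30), a CCAAT box at -176 and a TTTCCCGC at 32. The *Top2a* window held CHR matches at -179, -140, -120 and -23 with 6 CCAAT boxes, and the *Ncapd2* window held a CHR at -123, 3 CCAAT boxes and a TTTGGCGC at -8. *Smc2* had CHR matches at -145 and 27 and a CCAAT box at -119, while *Ncapg2* had a CHR at -18, TTTCCCGC at -249 and 1, and no CCAAT box. *Ncaph2* had a TTCGAA at -22, *Ncaph* had no match to any of these motifs, and the first *Ncapd3* window had none either (the second window held a TTTGAA at -249). Among all 32851 promoter windows, 19.2% held a CHR in either form, 37.4% a CCAAT box and 7.52% both, and 0.514% held TTTGGCGC and 1.07% TTTCCCGC. For *Ncapd2*, *Ncapg2* and, by a few bases, *Ncapg* the RefSeq start lies inside the gene interval given above. The second *Ncapd3* window lies wholly inside the interval of its gene. The TTTGGCGC and the nearest CCAAT box of *Ncapd2*, the CHR of *Ncapg2* and the TTTGAA of *Ncapd3* therefore fall within those intervals and not before them. A match is a run of letters and not a shown binding site.

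At baseline the subunit transcripts differed widely in level. Levels between genes are compared as FPKM, the authors' unit, in which counts are divided by transcript length and library total. *Ncaph2*, the condensin II kleisin, was highest at 13.2 ± 0.776 FPKM (SD, n = 3) and *Ncapd3* followed at 2.45 ± 0.0688. *Smc4* (1.15 ± 0.0739), *Ncapd2* (0.596 ± 0.148), *Smc2* (0.352 ± 0.00458) and *Ncaph* (0.151 ± 0.00857) came next in that order, each with a range apart from its neighbor's. *Ncapg2* (0.104 ± 0.0287) and *Top2a* (0.0872 ± 0.0305) overlapped in range, and *Ncapg* was lowest at 0.0072 ± 0.00492, a level that rests on 3, 1 and 1 counts. Before PHx, then, 2 condensin II subunits led the order and a condensin I subunit closed it.

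In the vehicle remnants at 40 h, all 9 transcripts were above baseline in every library, by amounts that differed between the subunits of the 2 complexes. Non-overlap in this direction was found for 24.2% of all genes. By the thresholds of the study (edgeR adjusted p under 0.05 and a log2 fold change over 1.5), 7 of the 9 were called higher, against 5.03% of all genes. *Ncapd3* and *Ncaph2* were not called. On adjusted p alone *Ncapd3* passed as well (edgeR adjusted p = 0.0378) and *Ncaph2* did not (0.0981). By that rule 12.7% of all genes were higher. The members were chosen with these changes known, so the values that follow describe them and no test is drawn from them. Values are CPM scaled by edgeR's trimmed mean of M values (normalized CPM), and 3 counts, taken as the detection floor, equal 0.0751 to 0.117 of that unit.

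The shared arms rose from low levels. *Smc2* was 1.990, 1.985 and 2.013 normalized CPM at baseline and 23.70, 24.70 and 27.09 in the vehicle remnants, a log2 fold change of 3.65 ± 0.28 (SE). *Smc4* was 6.571, 6.382 and 5.741 at baseline and 34.21, 37.65 and 35.43 in the vehicle remnants, a log2 fold change of 2.52 ± 0.40. The 3 vehicle remnants lay close together for both genes, and far above the baseline libraries. In FPKM, *Smc4* was 3.47, 3.38 and 3.0 times *Smc2* at baseline but 1.52, 1.6 and 1.38 times in the vehicle remnants, so the lower arm came nearer to the higher. *Top2a* was 1.137, 0.5802 and 0.7259 normalized CPM at baseline and 78.75, 79.84 and 64.48 in the vehicle remnants, a log2 fold change of 6.51 ± 0.59. From next to last in FPKM at baseline it became the second of the 9, at 8.04 ± 1.14 FPKM, behind *Ncaph2* at 18.6 ± 1.7.

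Among the condensin I subunits, *Ncapg* went from almost undetected to readily measured. Its 3, 1 and 1 counts equal 0.0948, 0.0305 and 0.0330 normalized CPM, and the vehicle remnants held 13.14, 11.22 and 13.36. Summed over libraries this is 1320 counts against 5, a depth-scaled ratio of 237 (95% interval 101 to 730, counting error only), and the fitted log2 fold change was 7.79 ± 0.76. The kleisin *Ncaph* was 0.695, 0.702 and 0.627 normalized CPM at baseline and 12.49, 14.82 and 10.96 in the vehicle remnants (log2 fold change 4.23 ± 0.61). The HEAT-repeat subunit *Ncapd2* was 3.096, 4.947 and 3.564 at baseline and 32.03, 40.87 and 21.85 in the vehicle remnants (3.03 ± 0.50). *Ncapd2* varied most among the vehicle remnants of all 9 members, with an SD of 0.454 on the log2 scale against a median of 0.219 over all genes.

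The condensin II subunits did not move as a unit. *Ncapg2* was 0.916, 0.519 and 0.693 normalized CPM at baseline and 13.79, 16.84 and 14.62 in the vehicle remnants, a log2 fold change of 4.40 ± 0.26 that lies among those of condensin I. *Ncapd3* was 14.50, 13.77 and 13.63 at baseline and 18.14, 23.35 and 19.01 in the vehicle remnants (0.53 ± 0.17). *Ncaph2*, already the most abundant subunit per length, was 55.98, 55.18 and 60.84 at baseline and 81.13, 86.22 and 73.67 in the vehicle remnants (0.49 ± 0.20). The 2 groups were separate for *Ncapd3* and *Ncaph2*, but the differences were under 1.5-fold. The member nearest above the fold threshold was *Smc4* (log2 fold change 2.52), and the nearest below it was *Ncapd3* (0.53).

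**Figure D1:**
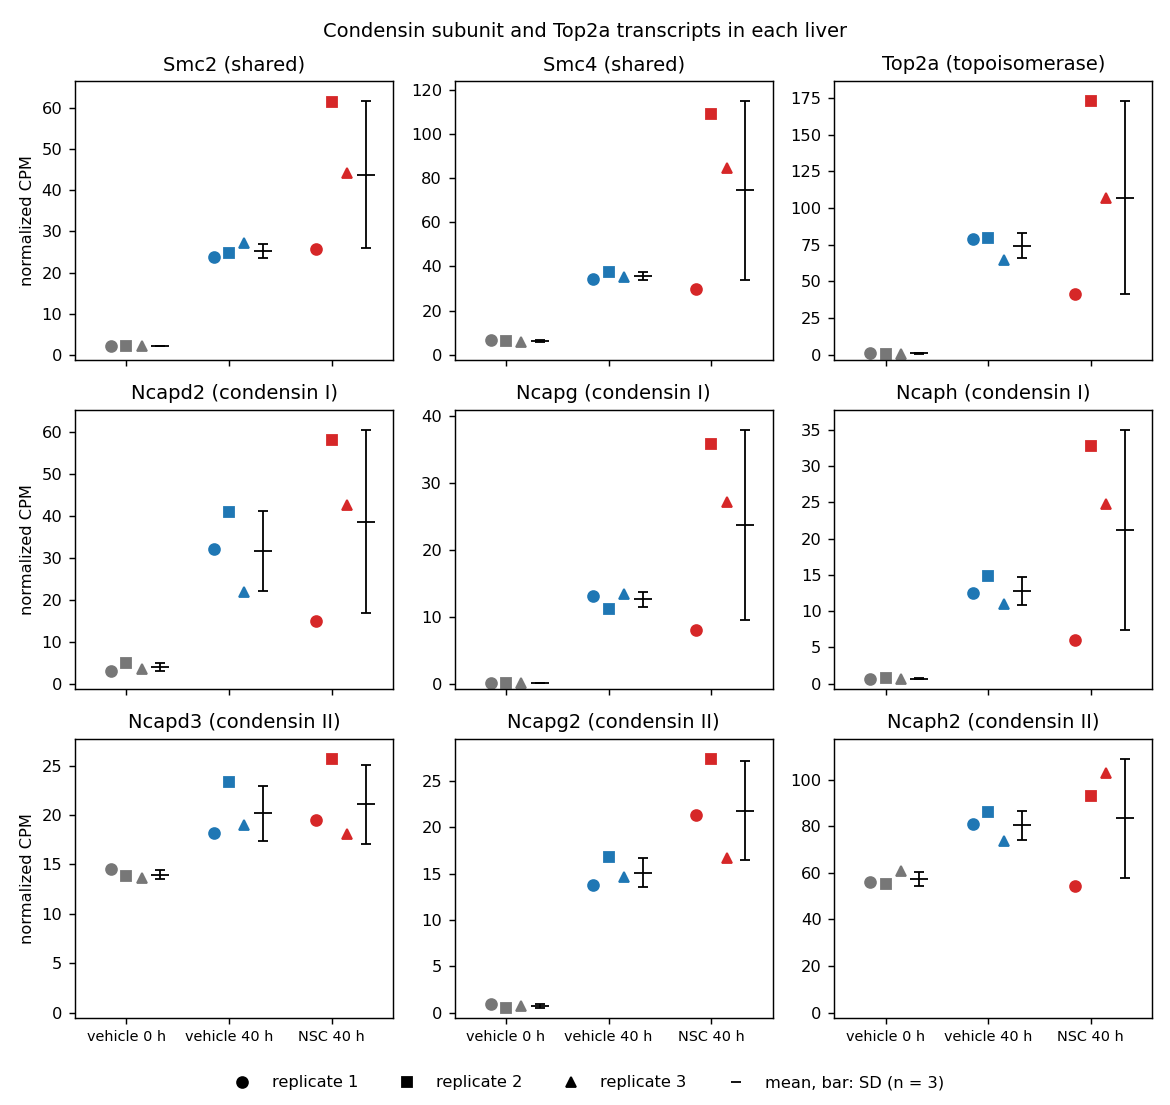
Normalized CPM (vertical axes, each from 0) of the 9 genes in the 3 groups (horizontal axes), with 1 point per library, its shape giving the replicate number, and a dash and bar for the mean and SD of 3 libraries. The vehicle remnants lie above baseline for every gene, *Ncapd3* and *Ncaph2* by the smallest factors, and NSC replicate 1 is the lowest NSC point for 7 of the 9.

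In the NSC remnants the same 7 genes were called higher than baseline, against 5.38% of all genes, and *Ncapd3* and *Ncaph2* again were not. On adjusted p alone *Ncapd3* passed (edgeR adjusted p = 0.0166) and *Ncaph2* did not (0.0549), where 18.2% of all genes were higher. Both sets of differences rest on the same 3 baseline libraries. *Smc2* held 25.80, 61.50 and 44.26 normalized CPM in NSC replicates 1, 2 and 3 (log2 fold change from baseline 4.45 ± 0.29), and *Smc4* held 29.94, 109 and 84.57 (3.58 ± 0.41). *Top2a* held 41.34, 172.8 and 107 (7.03 ± 0.60), so that its lowest remnant differed from its highest by more than the vehicle remnants did. The condensin I subunits had the same order of libraries. *Ncapg* held 8.069, 35.83 and 27.12 (summed counts 2017 against 5, ratio 432, 95% interval 185 to 1330, fitted log2 fold change 8.70 ± 0.76), *Ncaph* 6.0, 32.77 and 24.77 (4.96 ± 0.62) and *Ncapd2* 15.03, 58.17 and 42.50 (3.31 ± 0.50).

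Condensin II again was mixed. *Ncapg2* held 21.36, 27.34 and 16.71 normalized CPM (log2 fold change from baseline 4.94 ± 0.26), and here replicate 1 was not the lowest. *Ncapd3* held 19.47, 25.64 and 18.08 (0.59 ± 0.17). *Ncaph2* held 54.54, 92.81 and 102.7 (0.54 ± 0.20), and as replicate 1 lay just below the baseline libraries, it was the only one of the 9 whose NSC and baseline libraries overlapped. Non-overlap above baseline was found for 24% of all genes.

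**Figure D2:**
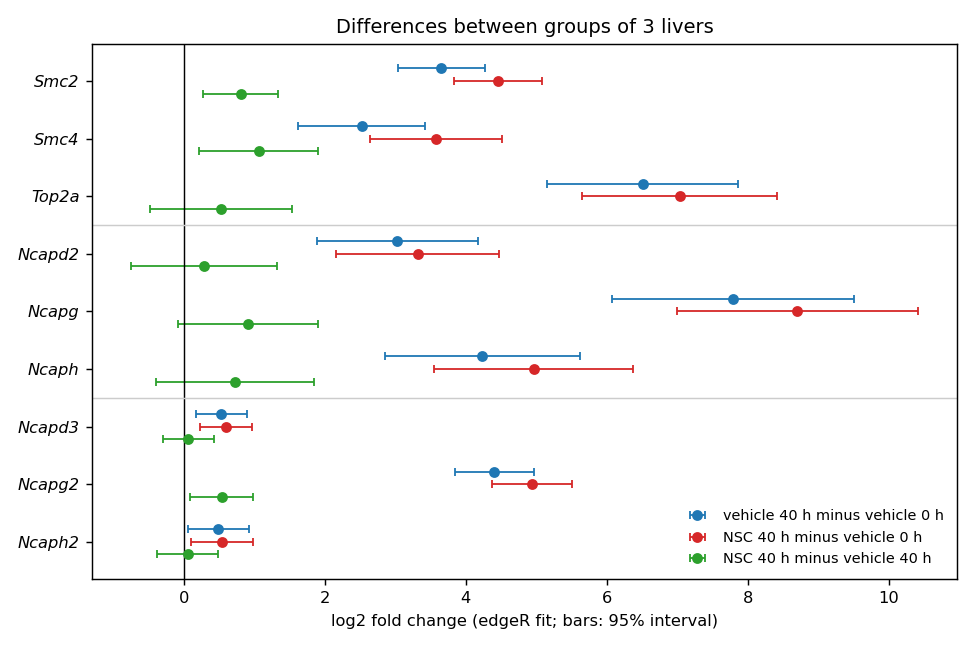
Log2 fold changes from the edgeR fit (horizontal axis, points) with 95% intervals (bars) for each gene (rows), for both 40 h groups against baseline and for NSC against vehicle at 40 h. *Ncapg* and *Top2a* have the largest differences from baseline (7.79 and 6.51 in vehicle), *Ncapd3* and *Ncaph2* the smallest (0.53 and 0.49), and the NSC against vehicle points lie between 0.05 and 1.06.

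Set side by side, the subunits particular to condensin I had a median log2 fold change of 4.23 in the vehicle remnants and 4.96 in the NSC remnants, and those particular to condensin II had 0.53 and 0.59. The median over all 9 genes was 3.65 and 4.45, and over all 15024 genes 0.0128 and 0.0129. With *Ncapg* set to its bound against the detection floor (log2 7.05 and 7.96), the medians of the 9 genes and of condensin I were the same. The condensin II medians are those of *Ncapd3*, and *Ncapg2* in the same complex exceeded the condensin I median in vehicle (4.40 against 4.23). The contrast between the complexes is thus carried by *Ncapd3* and *Ncaph2*, and with 3 genes in each list it is given as a description.

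Within a library, the paired subunits of the 2 complexes can be compared as ratios of FPKM. For the kleisins, *Ncaph* was 0.0121, 0.0124 and 0.01 times *Ncaph2* at baseline, 0.15, 0.168 and 0.145 times in the vehicle remnants, and 0.107, 0.344 and 0.235 times in the NSC remnants. The condensin I kleisin transcript therefore remained below its condensin II counterpart in every library. For one HEAT-repeat pair, *Ncapd2* was 0.187, 0.315 and 0.229 times *Ncapd3* at baseline, 1.55, 1.54 and 1.01 times in the vehicle remnants and 0.677, 1.99 and 2.06 times in the NSC remnants, so the order of this pair turned in every remnant but NSC replicate 1. For the other pair, *Ncapg* was 0.0968, 0.055 and 0.0445 times *Ncapg2* at baseline, 0.891, 0.623 and 0.855 times in the vehicle remnants and 0.353, 1.23 and 1.52 times in the NSC remnants. The baseline ratios of this pair rest on 3, 1 and 1 *Ncapg* counts, and with *Ncapg* set to the floor of 3 counts they would be 0.0968, 0.165 and 0.134.

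Condensin I subunits made up 3.99%, 5.73% and 4.04% of the summed FPKM of the 6 complex-specific subunits at baseline. Their share was 28.5%, 29.7% and 25.4% in the vehicle remnants and 20%, 41.5% and 35.1% in the NSC remnants. The remnants of both treatments were above baseline in every library, and NSC replicate 1 lay below the vehicle range while replicates 2 and 3 lay above it. By level in the vehicle remnants, *Ncaph2* (18.6 FPKM) still led, *Ncapd2* (4.88) and *Smc2* (4.47) overlapped, *Ncapd3* ranked sixth at 3.55, and *Ncaph* (2.87), *Ncapg2* (2.21) and *Ncapg* (1.74) closed the order with separate ranges. In the NSC remnants every pair of neighbors in the order overlapped.

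**Figure D3:**
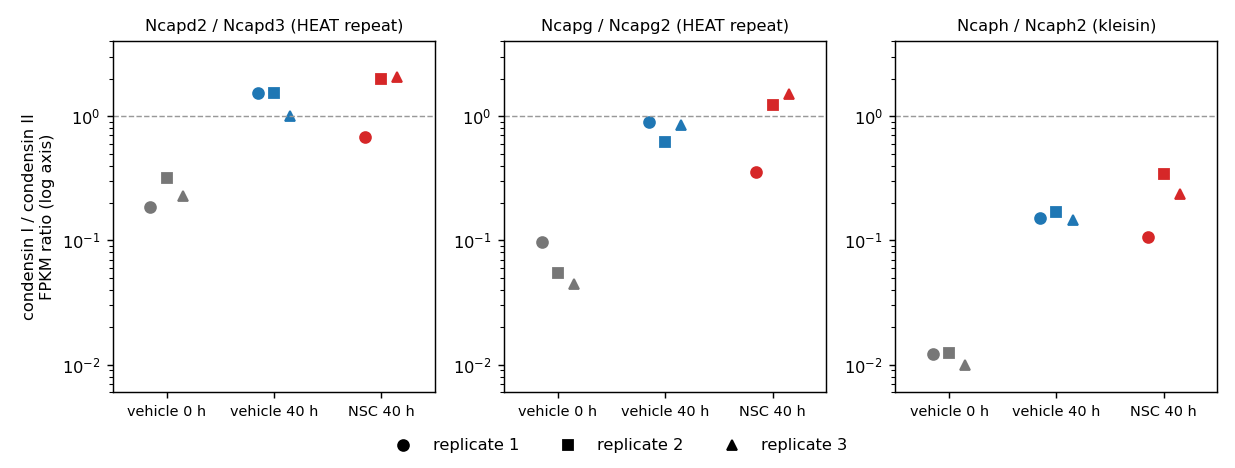
Ratio of FPKM of each condensin I subunit to its condensin II counterpart (vertical axis, log scale, dashed line at 1) in each library, by group and replicate. All 6 remnants lie above the baseline libraries in each panel, and the kleisin ratio stays under 1 in all 9 libraries, its highest value being 0.344.

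The effect of NSC on these transcripts at 40 h was read from NSC against vehicle remnants directly. The members were chosen for the complexes they belong to, with earlier results of these data known, so the p-values below are not independent of that choice. No member was called, against 0.02% of all genes (3 of 15024). All 9 estimates were above 0 (*Ncapd3* was below it with the GC correction described below), with a median of 0.53 on the log2 scale against 0.0153 over all genes, and all 9 had overlapping groups (10.3% of all genes had every NSC remnant above every vehicle remnant). At an unadjusted p under 0.05 there were 3 members by edgeR (*Smc2*, *Smc4* and *Ncapg2*) against 19.5% of all genes in either direction. By DESeq2 there were 4, and the share of all genes is not given for it. DESeq2 called no member by both thresholds and passed *Smc4* on adjusted p alone (0.0407). By that rule DESeq2 passed 2.98% of its 24325 genes in either direction, and edgeR 0.0399% of those it tested.

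The shared arms came nearest to the threshold. *Smc4* was 1.06 higher on the log2 scale in NSC (95% interval 0.21 to 1.90, edgeR adjusted p = 0.18) and *Smc2* 0.80 higher (0.27 to 1.33, adjusted p = 0.13). *Top2a* differed by 0.52 (-0.48 to 1.53, adjusted p = 0.537). For condensin I, the differences were 0.91 for *Ncapg* (-0.08 to 1.90, adjusted p = 0.288), 0.73 for *Ncaph* (-0.39 to 1.85, adjusted p = 0.44) and 0.29 for *Ncapd2* (-0.75 to 1.32, adjusted p = 0.76). Each of these intervals for condensin I and *Top2a* holds 0 and also holds values over 1 on the log2 scale.

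For condensin II, *Ncapg2* was 0.53 higher in NSC (0.08 to 0.98, adjusted p = 0.196), *Ncapd3* 0.06 (-0.30 to 0.42, adjusted p = 0.866) and *Ncaph2* 0.05 (-0.38 to 0.49, adjusted p = 0.91). For *Ncapd3* and *Ncaph2* the intervals stay within 0.5 log2 units of 0. They come from a fit that shares 1 estimate of the spread over the groups. For *Ncaph2* the SD of log2 CPM was 0.49 among the NSC remnants and 0.114 among the vehicle remnants, so its interval may be too narrow. The same limit applies to other members. Among them are *Smc4* (0.986 and 0.07) and *Smc2* (0.632 and 0.099), whose intervals leave out 0. The condensin I median was 0.73 and the condensin II median 0.06, a difference of 0.67. This difference was 0.89 when NSC replicate 1 was left out, 0.30 when replicate 2 was and 0.44 when replicate 3 was, and it was 0.19 with the GC correction.

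All 9 genes varied more among the NSC remnants than among the vehicle remnants. For 6 of the 9 genes (*Smc4*, *Ncapd2*, *Ncapg*, *Ncaph*, *Ncaph2* and *Top2a*), NSC replicate 1 was below every vehicle remnant while NSC replicates 2 and 3 were above every one, a pattern found in 5.46% of all genes. The SD of log2 CPM among the NSC remnants was 1.31 for *Ncaph*, 1.14 for *Ncapg*, 1.05 for *Top2a*, 1.02 for *Ncapd2* and 0.986 for *Smc4*. The median over all genes was 0.293, and *Ncapd3* (0.265) and *Ncapg2* (0.354) were near it. Without NSC replicate 1, again no member passed both thresholds, but 5 of 9 passed adjusted p alone, against 6.46% of all genes. These were *Smc4* (log2 fold change 1.43, edgeR adjusted p = 0.000231), *Ncapg* (1.32, adjusted p = 0.00161), *Smc2* (1.07, adjusted p = 0.00227), *Ncaph* (1.17, adjusted p = 0.00302) and *Top2a* (0.91, adjusted p = 0.0344).

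Without NSC replicate 2, on the other hand, *Ncapd2* (-0.14), *Ncapd3* (-0.10), *Ncaph2* (-0.03) and *Top2a* (-0.0052) turned to the other side of 0, and no member passed. The other estimates were then 0.68 for *Smc4*, 0.48 for *Smc2*, 0.48 for *Ncapg*, 0.26 for *Ncaph* and 0.34 for *Ncapg2*. Nothing in the labels sets any of the 3 NSC remnants aside, so all 3 stand in the values above. Marker sums of several cell types, hepatocytes among them, set replicate 1 apart from the other NSC remnants, as given above. Their part in the result was not tested. Transcript GC content ranged from 34.8% (*Ncapg*) to 55.7% (*Ncaph2*). After a correction for GC content, chosen after seeing the data, no member reached an unadjusted p under 0.05 in NSC against vehicle, with *Smc4* at 0.71 and *Smc2* at 0.43.

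**Figure D4:**
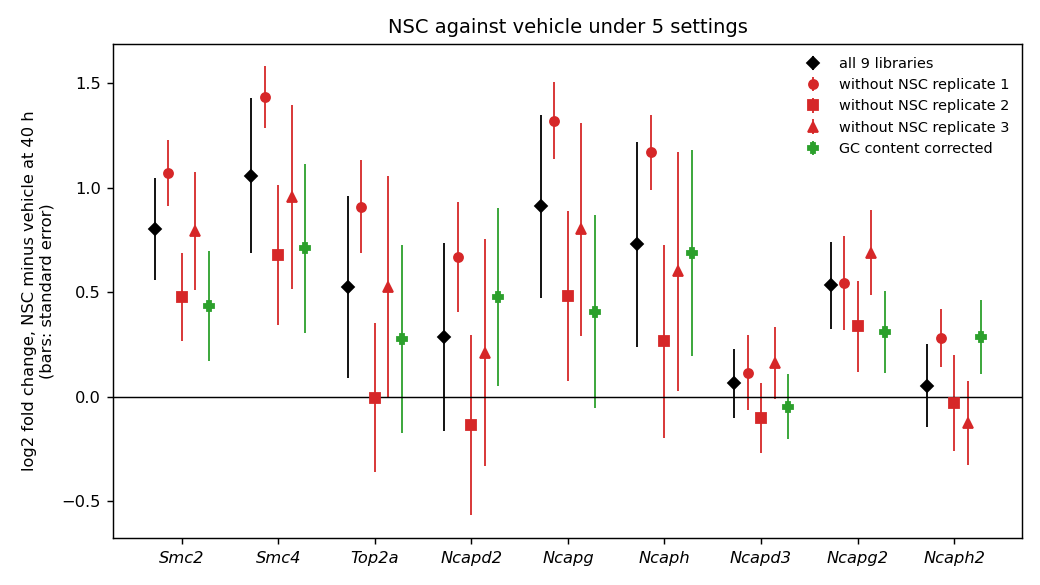
Log2 fold change of NSC against vehicle at 40 h (vertical axis, bars SE) for each gene (horizontal axis) with all 9 libraries, without each NSC remnant in turn, and with GC correction. Leaving out NSC replicate 1 raises the estimate for *Smc4* from 1.06 to 1.43 with smaller errors, and leaving out replicate 2 lowers it to 0.68.

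Related chromosome genes outside condensin were followed on 4 lists of 42 genes in all, every one of which was tested. Of the 10 regulators and partners of condensin, 8 rose by both thresholds in the vehicle remnants and 8 in the NSC remnants, against 5.03% and 5.38% of all genes. Among those in vehicle were *Ccnb1* (log2 fold change 7.42) and *Cdk1* (5.41), the cyclin and kinase that drive mitotic entry and phosphorylate condensin, the mitotic kinases *Aurkb* (7.15) and *Plk1* (6.20), the chromosome surface protein *Mki67* (6.55), and the chromokinesins *Kif4* (5.61) and *Kif22* (5.62). Their edgeR adjusted p in vehicle ran from 0.00014 for *Mki67* to 0.00929 for *Plk1*. The same 8 symbols were called in NSC, with log2 fold changes from 6.25 (*Kif22*) to 8.90 (*Ccnb1*) against the same baseline. The list members that were not called were *Mcph1*, which restrains condensin II (0.78 in vehicle, adjusted p = 0.0763, and 1.09 in NSC, adjusted p = 0.0142), and *Akap8* (-0.27 and -0.21, not passing).

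Of 17 cohesin genes, 4 rose by both thresholds in each 40 h group, against the same 5.03% and 5.38% of all genes. These were *Sgo1*, which protects centromeric cohesin (depth-scaled ratio of summed counts 100 in vehicle, 95% interval 42.7 to 310, and 184 in NSC, 78.7 to 569, on 5 counts at baseline), *Espl1*, the separase that cuts it (log2 fold change 5.74 and 5.91), *Esco2*, the S-phase acetyltransferase of the ring (5.51 and 6.87), and *Cdca5*, or sororin (4.40 and 5.10). Their adjusted p values in vehicle were between 0.000161 and 0.0018. The ring itself differed less from baseline. *Smc1a* differed by 0.26 and 0.25 (adjusted p = 0.327 and 0.295) and *Smc3* by 0.31 and 0.37 (adjusted p = 0.151 and 0.0721), while the kleisin *Rad21* rose by 0.78 in vehicle (adjusted p = 0.0338) and 1.38 in NSC (adjusted p = 0.0014) without reaching the fold threshold. On adjusted p alone 5 cohesin genes were higher and 1 lower (*Pttg1*, securin, -0.82) in vehicle, where 12.7% of all genes were higher and 11% lower by that rule. By the same rule 9 were higher and 1 lower (*Mau2*, -0.54) in NSC, against 18.2% and 16.5% of all genes.

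The arms of condensin and of cohesin can be set side by side. *Smc2* and *Smc4* were 12.6-fold and 5.74-fold above baseline in vehicle, against 1.195-fold and 1.243-fold for *Smc1a* and *Smc3*. The difference between the 2 complexes was not tested, as *Smc2* and *Smc4* were chosen with their rise known. None of 8 SMC5/6 genes was called in either group, with 2 higher on adjusted p alone in vehicle (*Slf1*, 1.03, and *Nsmce1*, 0.59) and 4 in NSC, by a rule that 12.7% and 18.2% of all genes passed upward. The last list held 5 other topoisomerase genes and *Tdp1* and *Tdp2*, phosphodiesterases that repair topoisomerase-DNA adducts, and none of these 7 was called. *Top2b*, the isoform that non-dividing cells also use, differed by -0.30 in vehicle (adjusted p = 0.164) and 0.12 in NSC (adjusted p = 0.564), and *Top1* rose by 0.43 (adjusted p = 0.0478) and 0.80 (adjusted p = 0.00152). *Top1mt*, the mitochondrial enzyme, fell by 0.45 in vehicle (adjusted p = 0.0381) and by 0.72 in NSC (adjusted p = 0.00265), and *Top3b* fell by 0.52 in NSC (adjusted p = 0.0138), so on adjusted p alone this list had 1 gene higher and 1 lower in vehicle, and 1 higher and 2 lower in NSC.

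Between NSC and vehicle remnants, none of the 42 related genes was called by edgeR or DESeq2, and 12 by edgeR and 14 by DESeq2 had an unadjusted p under 0.05, which 19.5% of all genes had by edgeR. By edgeR this count was 0 with the GC correction, 5 without vehicle replicate 2 at 40 h, 7 without vehicle replicate 1 at 40 h, 7 without NSC replicate 2 and 21 without NSC replicate 1. The share of all genes at an unadjusted p is not given for these settings, so the counts are not read as particular to the related genes. Without NSC replicate 1, 4 related genes passed both thresholds by edgeR, among them *Cdk1*, *Ccnb1* and *Esco2*. In that setting 181 of all genes did so instead of 3, and 6.46% passed adjusted p alone instead of 0.0399%. In *Ccnb1* the NSC remnants held 8.309, 115.4 and 108.1 normalized CPM, and the vehicle remnants 29.96, 27.88 and 25.43. The same library was thus lowest for cyclin B1 as for the condensin I subunits.

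**Figure D5:**
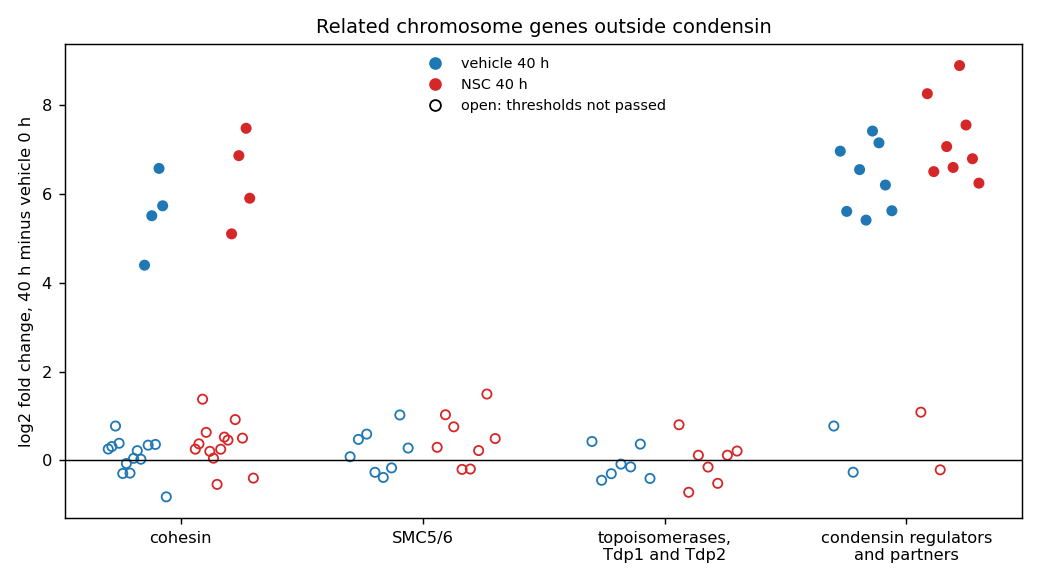
Log2 fold change from baseline (vertical axis) of the 42 related genes, grouped by list (horizontal axis), with 1 point per gene for vehicle and for NSC at 40 h and filled points for genes past both thresholds. In each group 4 cohesin genes and 8 condensin regulators and partners are filled, and none of the SMC5/6 list or of the list of topoisomerases with *Tdp1* and *Tdp2* is.

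Genes whose pattern over the 9 libraries was most like each set were found as those with the smallest root mean square difference of centered log2 CPM. For the mean of the condensin I subunits these were *Kif11* (0.193), *Neil3* (0.22), *Spag5* (0.229), *Bub1b* (0.269) and *Cenpi* (0.284), against a median of 2.37 over all genes. For condensin II they were *Rpa2* (0.183), *Il33* (0.184), *Cdc25a* (0.195), *Haus6* (0.203) and *Nup107* (0.214), against 0.959. For *Top2a* they were *Aurkb* (0.217), *Mki67* (0.291), *Nuf2* (0.312), *Tpx2* (0.365) and *Bub1* (0.413), against 3.17. The condensin II mean blends the steep *Ncapg2* with the much smaller rises of *Ncapd3* and *Ncaph2*, so its nearest genes match an average that none of the 3 followed.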

How the data were processed

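RNA-Seq was done on liver RNA from 9 libraries (TruSeq Stranded mRNA, poly(A) selected). The deposited table holds raw gene counts and FPKM that the authors made with STAR 2.6.1 and featureCounts from Subread 1.5.1 within the MAP-RSeq workflow. The sources name a human build, whereas the table's gene identifiers and coordinates are mouse (GRCm38). The deposited FPKM equals the count divided by length (plus 1 base) and library total. Groups came from the labels. Counts were filtered with filterByExpr, scaled by TMM and tested with edgeR 4.0.16 (robust quasi-likelihood, condition as the only term, all 9 libraries, R 4.3.3), with Benjamini-Hochberg adjustment over 15024 genes. Log2 CPM used a prior count of 2. Alternatives were DESeq2 1.42.0, other scalings and filters, fits of 2 groups, no fold threshold, a replicate block, leaving out each library and a GC correction (loess, span 0.5, GC known for 99.2% of genes). No libraries were duplicates (chi-square per gene 22.9 to 140 within groups). Intervals on counts cover counting error only.

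Members and gene lists were chosen with earlier results of these data known. Named genes were the 9 members, related genes past both thresholds in any comparison (values of 1 of them are not reported here), *Smc1a*, *Smc3*, *Rad21*, *Top1* and *Top2b*, and the 5 genes nearest to each profile. Other genes on the lists (*Mcph1*, *Akap8*, *Pttg1*, *Mau2*, *Slf1*, *Nsmce1*, *Tdp1*, *Tdp2*, *Top1mt*, *Top3b* and the marker *Tat*) were named after their values were seen. The table lists some genes under older symbols, and these were matched by Ensembl identifier. Of the other marker lists, summed normalized CPM at baseline, in vehicle remnants and in NSC remnants ran 191.4 to 202.4, 118.6 to 190.1 and 136.3 to 238.6 for endothelial, 161.7 to 219.5, 57.32 to 97.39 and 56.43 to 126.6 for erythroid, and 102.3 to 110.6, 87.75 to 144.1 and 74.6 to 101.8 for stellate markers. For cholangiocyte markers they ran 37.75 to 40.58, 75.97 to 114.5 and 79.02 to 121.5, for neutrophil markers 3.512 to 10.52, 9.006 to 18.27 and 12.37 to 18.81, and for lymphocyte markers 2.107 to 7.788, 0.5905 to 2.099 and 1.8 to 2.31. *Epb42*, *Rhag* and *Mpo* had at most 3 counts in every library.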

Additional observations from a re-analysis of the deposited data

How the results depend on the processing

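The 7 members called higher at 40 h in each treatment stayed 7 of those tested under every alternative run except the filter of at least 10 counts in every library, which removed *Ncapg* and left 6 of 8, and the rule with no fold change threshold, which gave 8 and 8. No member was called in NSC against vehicle under any of them. Under that filter 4 related genes were called in vehicle and 5 in NSC instead of 12 and 12, with 34 tested, and condensin I could not be summarized. With no fold change threshold 18 related genes passed in vehicle and 26 in NSC. By this rule, which also gave the 8 and 8 members, 23.7% and 34.7% of all genes passed in either direction. For NSC against vehicle, leaving out 1 library gave 0 to 4 related genes called, with 4 only without NSC replicate 1, where 181 of all genes were called instead of 3. In that comparison DESeq2 called 51 of all genes, a filter of at least 1 count 20, and the other settings 0 to 16. The filter of 10 counts called 596 of all genes in vehicle and 704 in NSC against baseline, instead of 1085 and 1222. The treatment estimate crossed 0 for *Ncapd3* with GC correction (-0.05). Leaving out 1 library gave -0.14 to 0.67 for *Ncapd2*, -0.10 to 0.18 for *Ncapd3*, -0.13 to 0.28 for *Ncaph2* and -0.0052 to 0.91 for *Top2a*. Scaling by library size alone moved the median of all genes in NSC to 0.15 against baseline and 0.14 against vehicle. Between libraries of the same replicate number, the correlation of deviations was -0.048 to 0.134, and each library was nearest to its own number in 6 of 9 cases. With 3 libraries per group, this cannot settle whether libraries of the same number came from the same mouse. The fit with the replicate block called 7, 7 and 0 members and 12, 12 and 0 related genes in the 3 comparisons. Baseline depth limits *Ncapg*, whose ratio rests on 5 counts.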

Other observations

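Among the members themselves, only *Ncapd3* and *Ncaph2* were nearest over the 9 libraries to a subunit particular to the same complex. By the same root mean square difference of centered log2 CPM, *Ncapg* was nearest to *Top2a* (0.343) and *Ncapd3* to *Ncaph2* (0.26). *Smc4* was nearest to *Ncapd2* (0.402), and *Smc2* to *Ncaph* (0.416). *Ncapg2*, of condensin II, was nearest to *Smc2* (0.453) and farthest from *Ncaph2* (1.97), its own kleisin. These values share libraries, depth and scaling and are given as a description.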
